A study of Mus musculus with 5 samples.

Results

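Mural cells are the support cells of blood vessels. They comprise the pericytes, which lie in the basement membrane of capillaries, and the vascular smooth muscle cells, which wrap arteries and veins and set vessel tone. Endothelial cells draw mural cells to the vessel with platelet-derived growth factor B (PDGF-B), which is read by the receptor *Pdgfrb*, and drive their maturation with Notch ligands, which are read by *Notch3*. In the embryonic limb the vessels are still being built, and mural cells arise in the mesenchyme around them.

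Mural cells of the embryonic mouse limb were sought with a rule of 7 marker genes. The markers were *Rgs5* (a regulator of G-protein signalling), *Kcnj8* and *Abcc9* (the subunits of an ATP-sensitive potassium channel), *Notch3*, *Cspg4* (the NG2 proteoglycan), *Higd1b* and *Myh11* (smooth muscle myosin heavy chain). A kept limb cell was chosen if it had at least 1 unique molecular identifier (UMI, 1 counted transcript) of 3 or more of the 7 markers, and no UMI of *Cdh5* (an endothelial cadherin) or of *Myod1* (a skeletal muscle factor). The rule chose 620 of 42562 kept limb cells, in a series of 62143 kept cells. The forelimb gave 334 of 22057 cells (1.51%, 95% exact binomial interval 1.36 to 1.68), and the hindlimb gave 286 of 20505 cells (1.39%, 1.24 to 1.56). The intervals overlap. Intervals on shares and levels cover counting error only.

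Each limb was 1 single-cell library of male embryos of genotype C57BL/6N per the labels, 15 days old, with no allele or agent in either limb group. The study's text names the strain C57BL/6J and does not give the embryos' age the same way throughout. Per the study's methods both limbs were taken from several male embryos, and whether embryos were pooled in a library or shared by the limb libraries was not stated. The series also holds 3 libraries of penis from untreated males of the same labelled genotype at postnatal day 6, with the prepuce removed and with fewer litters than animals, to which the rule was applied in the same way. It chose 350, 341 and 266 penis cells (5.16%, 4.81% and 4.66% of the kept cells). Tissue, age and preparation differ together between limb and penis and cannot be told apart, and neither limb has a replicate library.

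The chosen limb cells were deeper than the rest. Their median was 10442 UMIs in the forelimb and 10295.5 in the hindlimb, against 5313 and 6016 in all other kept limb cells, and their median mitochondrial share was 3.45% in both limbs against 3.85% and 3.68%. Summed over cells, they held 4947278 UMIs in the forelimb and 4307973 in the hindlimb, against 137771255 and 143770712 in the other cells. Forelimb and hindlimb shared 203 barcodes, none of which was a chosen cell in both limbs. Whether any of them was a chosen cell in 1 limb only was not counted. No doublet caller was run. A UMI of 3 or more markers of another cell type, red blood cells left aside, was present in 19.5% of chosen forelimb cells and 18.9% of chosen hindlimb cells, against 26.0% and 28.7% of the other cells. The other cells include the cells of those types, so their share is no measure of mixed cells. In the chosen penis cells the share was 5.71%, 7.62% and 6.02%. For cartilage alone it was 11.7% and 12.9% of the chosen limb cells, against 10.5% and 14.5% of the other limb cells. Globin was found in nearly every kept limb cell, with an *Hbb-bs* UMI in 98.5% and 96.9% of chosen cells and in 97.8% and 96.9% of the others.

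How many cells met the rule went with depth. In the forelimb, 6 of 2489 cells under 2000 UMIs were chosen (0.241%, interval 0.0885 to 0.524). Of the cells with 20000 UMIs or more, 70 of 501 were chosen (interval 11.1% to 17.3%). The hindlimb gave 2 of 1635 cells (0.122%) and 61 of 565 cells (10.8%, 8.36 to 13.7) at the same depths. The part of depth in membership was not tested. Among cells of 3000 to 12000 UMIs alone, the share was 1.15% in the forelimb and 1.03% in the hindlimb.

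**Figure D1:**
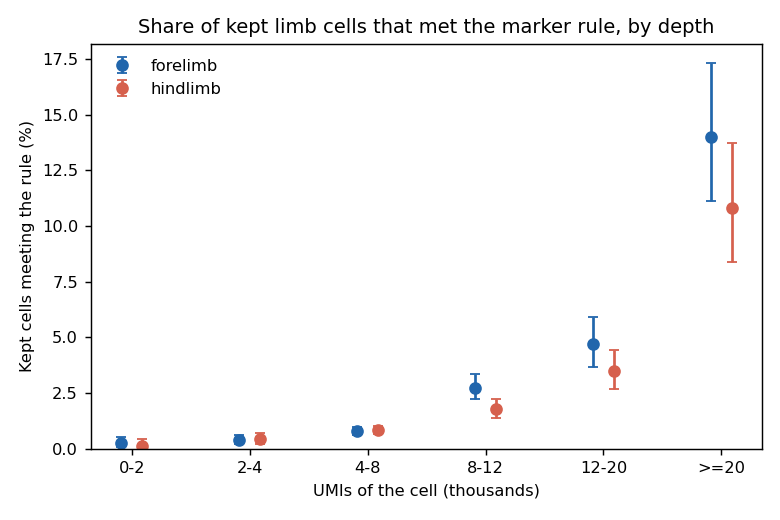
Share of kept limb cells that met the marker rule (y axis, percent) against the UMIs of the cell (x axis, in units of 1000), for the forelimb and the hindlimb. Points are shares and bars are exact binomial 95% intervals. The forelimb share was 0.241% under 2000 UMIs and the hindlimb share was 0.122%, against 10.8% in the hindlimb at 20000 UMIs or more.

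Most chosen cells stood at the limit of the rule. Exactly 3 markers were found in 243 forelimb cells (72.8%) and 201 hindlimb cells (70.3%), and 4 markers in 59 and 49 cells. In each limb 25 cells had 5 markers, while 6 forelimb and 11 hindlimb cells had 6, and 1 forelimb cell had all 7. Just outside the limit, 1287 forelimb and 1240 hindlimb cells had exactly 2 markers. Their median depth was 8501 and 8692 UMIs, against 10657 and 10533 UMIs in the cells with 3.

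The markers did not contribute evenly. *Notch3* had a UMI in 267 of 334 forelimb cells and 240 of 286 hindlimb cells, *Abcc9* in 234 and 207, *Cspg4* in 224 and 217, and *Kcnj8* in 195 and 153. *Rgs5*, the usual leading pericyte marker, had one in 109 forelimb cells (32.6%) and 86 hindlimb cells (30.1%). *Myh11* was found in 89 and 76 cells, and *Higd1b* in 15 and 11. The most frequent combination was *Abcc9*, *Notch3* and *Cspg4* with no other marker, in 46 forelimb cells (13.8%) and 48 hindlimb cells (16.8%). Most chosen cells of both limbs thus had no *Rgs5* UMI.

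The levels of the 7 genes are given only as a description, since they chose the cells. In CPM (UMIs of the gene per 1000000 UMIs of the summed cells), *Rgs5* was 151 in the chosen forelimb cells and 143 in the chosen hindlimb cells, against 6.71 and 5.49 in the other cells. *Kcnj8* was 66.5 and 72.7 CPM against 6.18 and 3.44, and *Abcc9* 96.8 and 108 CPM against 8.93 and 7.88. *Notch3* was 103 and 112 CPM against 37.5 and 36.3, and *Cspg4* 79.8 and 86.6 CPM against 38.2 and 42.5. *Notch3* and *Cspg4* were the 2 of these 5 whose ratio of chosen to other cells was smallest in both limbs.

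Each marker was then read in cells chosen without its own vote, by 3 or more of the other 6. *Rgs5* had a UMI in 20.8% of such forelimb cells and 20.3% of such hindlimb cells, against 1.79% and 1.91% of the rest. *Higd1b* had one in 4.49% and 3.85% against 0.0663% and 0.0649%. *Cspg4* had one in 34.5% and 48.9% against 18.1% and 20.3%, the smallest ratio of the 7. Within 3000 to 12000 UMIs, *Rgs5* was found in 27.3% and 26.1% against 1.84% and 1.89%, and *Cspg4* in 28.4% and 38.6% against 18.4% and 19.9%. Only the range of depth was matched there, since the cells read for *Rgs5* had medians of 8343.5 and 7731.5 UMIs against 5596 and 5953 in the rest.

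Genes outside the rule were read by the number of markers. *Gucy1a1*, a subunit of the nitric oxide receptor, was 376 CPM in forelimb cells and 353 CPM in hindlimb cells with 5 or more markers, against 57.8 and 61.7 CPM in all chosen cells. *Pdgfrb* was 263 and 331 CPM with 5 or more markers, against 80.0 and 85.7. *Acta2*, smooth muscle actin, was 2811 and 2746 CPM with 5 or more markers, against 386 and 322. *Pdgfra*, a receptor of mesenchymal fibroblasts, ran the other way, at 33.7 CPM (95% Poisson interval 18.4 to 56.6) and 42.9 CPM (25.4 to 67.8) with 5 or more markers, against 127 and 134 in all chosen cells. The cells with exactly 3 markers stayed near the other limb cells in *Pdgfra* and held more *Col1a1*, the main fibrillar collagen, at 4528 and 4278 CPM against 2850 and 2415.

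**Figure D2:**
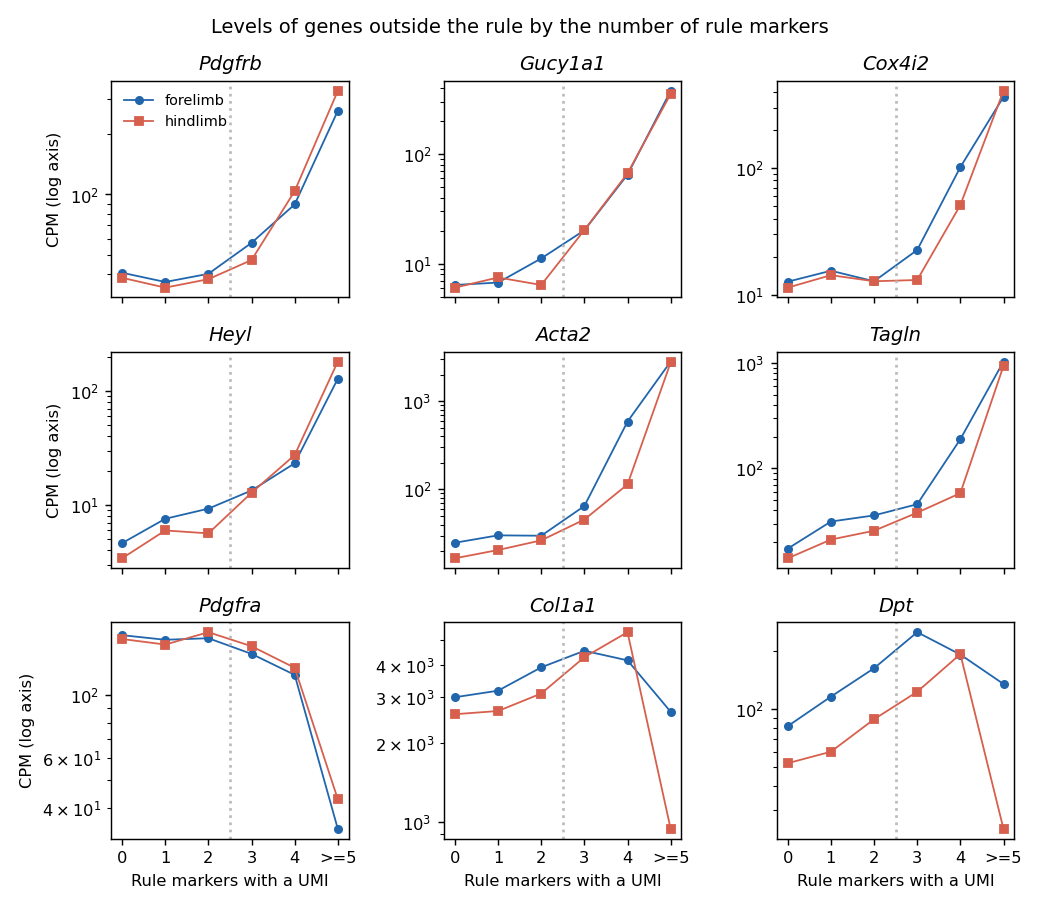
Level in CPM (log axis) of 9 genes outside the rule in kept limb cells with no *Cdh5* or *Myod1* UMI, grouped by the number of rule markers with a UMI (x axis), for the forelimb and the hindlimb. The dotted line marks the limit of the rule. *Gucy1a1* reached 376 CPM in the forelimb and 353 CPM in the hindlimb with 5 or more markers, where *Pdgfra* was 33.7 and 42.9 CPM.

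An *Rgs5* UMI divided the chosen cells. *Gucy1a1* was 184 CPM in forelimb cells with *Rgs5* and 189 CPM in hindlimb cells with it, against 14.6 and 20.3 CPM without it and 7.06 and 6.59 CPM in the other limb cells. *Cox4i2*, an oxygen-regulated subunit of cytochrome oxidase, was 201 and 186 CPM with *Rgs5*, 18.7 and 17.5 CPM without it, and 13.1 and 12.3 CPM in the other cells. *Acta2* was 1389 and 1205 CPM with *Rgs5* and 43.4 and 33.9 CPM without it, which was under the 78.8 and 58.8 CPM of the other cells. The other cells include those with *Cdh5* or *Myod1*, and the cells with neither and exactly 2 markers had 29.9 and 26.5 CPM of *Acta2*. In both libraries the cells without *Rgs5* lay nearer to the other limb cells than to the cells with *Rgs5* in these genes.

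Fibroblast and dermal genes ran the other way. *Dpt* (dermatopontin) was 88.0 CPM in forelimb and 20.8 CPM in hindlimb cells with *Rgs5*, against 280 and 162 CPM without it. *Twist2*, a factor of dermal mesenchyme, was 58.7 and 47.2 CPM with *Rgs5* against 162 and 122 CPM without it. *Col1a1* was 2919 and 1677 CPM with *Rgs5* against 4780 and 4969 CPM without it. *Pdgfra* differed less, at 124 and 105 CPM with *Rgs5* against 129 and 143 CPM without it. The cells with *Rgs5* were not the deeper ones, with medians of 9136 and 8374 UMIs against 11585 and 11553.5.

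The split was also read with each cell thinned to 2000 UMIs, with shallower cells left out. These were 6 chosen forelimb and 2 chosen hindlimb cells, out of 2489 and 1635 kept cells under that depth. A *Gucy1a1* UMI was then expected in 31.0% of forelimb and 32.6% of hindlimb cells with *Rgs5*, in 4.25% and 4.81% of chosen cells without it, and in 1.34% and 1.20% of the other limb cells. An *Acta2* UMI was expected in 42.8% and 40.0% with *Rgs5*, in 6.62% and 5.72% without it, and in 6.40% and 5.05% of the other cells. A *Dpt* UMI was expected in 6.92% and 3.44% with *Rgs5* and in 33.6% and 20.2% without it. Over the whole lists, 17 of 22 pericyte genes and 12 of 15 contractile genes outside the rule were higher with *Rgs5* in both limbs. The share of all genes with that direction was not counted, so nothing is read from these counts. The pericyte genes *Ebf2*, *Cd248* and *Anpep* were lower with *Rgs5* in both. *Ebf2*, an early B-cell factor, was 233 and 186 CPM with *Rgs5*, 254 and 256 CPM without it and 135 and 135 CPM in the other limb cells. *Cd248* (endosialin), which mesenchymal fibroblasts also carry, was 129 and 98.2 CPM with *Rgs5*, 180 and 152 CPM without it and 71.3 and 57.1 CPM in the other cells. The larger group, without *Rgs5*, thus held *Gucy1a1*, *Cox4i2* and *Acta2* nearer to the level of other limb cells, but not *Ebf2* and *Cd248*. As the 2 groups differed in this way, the label of mural cells is not used for them as a whole, and the cells are named here by the rule, as limb cells with 3 or more mural markers.

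**Figure D3:**
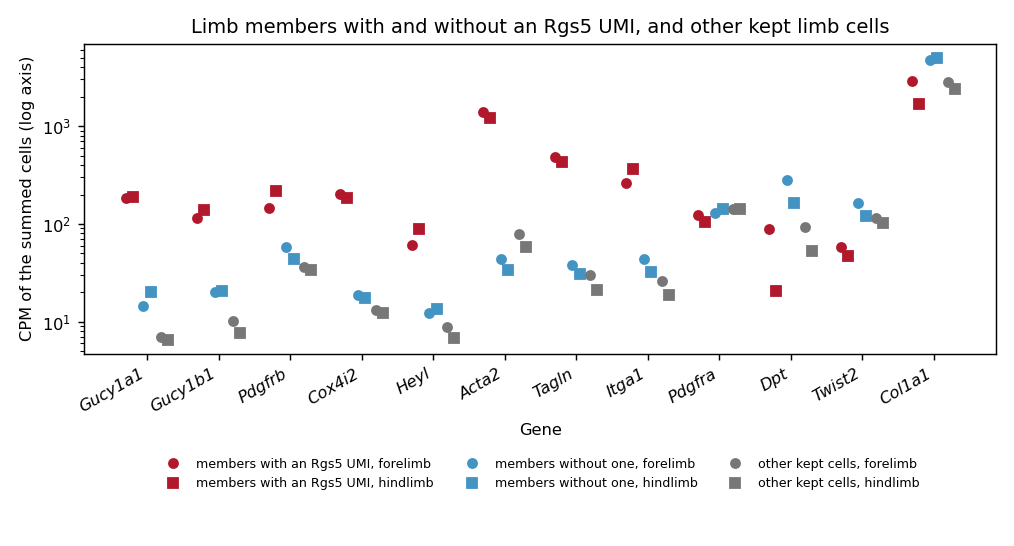
Level in CPM (log axis) of 12 genes outside the rule in chosen limb cells with an *Rgs5* UMI, in chosen cells without one, and in the other kept limb cells, 1 point per library. *Acta2* was 1389 and 1205 CPM with *Rgs5* and 43.4 and 33.9 CPM without it, while *Dpt* was lower with *Rgs5* in both libraries.

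The chosen cells were set against all other kept limb cells, library by library, with edgeR's quasi-likelihood test on the summed counts. As both groups were formed from the UMIs of the same cells, the values are a description of the choice, and no p-value is given. Of 21240 genes, 194 (0.913%) were higher in the chosen cells and 594 (2.80%) were lower past an adjusted p of 0.01 and a log2 difference of 1, or 3.71% in all. The median log2 difference over all genes was -0.03. Differences below are log2 values ± SE of the fit over both libraries, and nothing is read from the counts of calls.

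Of 22 pericyte genes outside the rule, 13 were past the limits as higher and none as lower, with a median of 1.19. *Foxs1*, a forkhead factor of pericytes, differed by 4.41 ± 0.43 but rested on 14 forelimb and 16 hindlimb cells. *Gucy1a1* differed by 3.09 ± 0.11, and its partner *Gucy1b1*, at 44.7 and 49.9 CPM against 10.3 and 7.67, by 2.37 ± 0.14. *Cox4i2*, at 65.3 and 59.0 CPM, differed by 2.25 ± 0.10, *Heyl*, a Notch target factor, at 24.7 and 32.0 CPM against 8.75 and 6.90, by 1.82 ± 0.17, and *Pdgfrb* by 1.21 ± 0.08. *Ebf1*, an early B-cell factor also found in pericytes, had the highest level of the list, 1150 and 1358 CPM against 708 and 789, and was not past the limits.

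Among the chosen cells with *Rgs5*, 14 of 22 pericyte genes were past the limits as higher with a median of 2.29. Over all genes 1.30% were higher and 2.40% lower there, with a median of -0.08. Among the chosen cells without it, 4 were higher and 2 lower with a median of 0.49, where 1.08% of all genes were higher and 3.28% lower and their median was -0.04. Against other limb cells with a *Pdgfra* UMI only, 10 were higher and the median was 1.10, where 0.679% of all genes were higher and 0.633% lower. Within 3000 to 12000 UMIs, 15 were higher and the median was 1.84, where 1.16% of all genes were higher and 2.53% lower.

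Of 15 contractile genes outside the rule, 8 were past the limits as higher and none as lower, with a median of 1.16. *Actg2*, gamma smooth muscle actin, differed by 4.30 ± 0.20, with 25.3 and 24.6 CPM against 1.23 and 1.22, but 1 cell held 32.8% of its UMIs in the forelimb and 45.3% in the hindlimb. *Myocd*, the coactivator that drives smooth muscle genes, differed by 3.23 ± 0.30, with 6.87 and 8.12 CPM against 0.856 and 0.696. *Tagln* (transgelin) differed by 2.44 ± 0.08, *Acta2* by 2.34 ± 0.06, and *Myl9*, a myosin light chain, by 1.50 ± 0.07. *Tpm2*, *Smtn* and *Synpo2* were not past the limits. Without an *Rgs5* UMI the contractile list had 0 genes higher and 2 lower, with a median of -0.15, where 1.08% of all genes were higher and 3.28% lower. There *Acta2* turned to -0.87, *Actg2* to -0.15 and *Myocd* to -0.47.

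The contractile genes were unevenly spread over cells. Of 12 such genes, 85 forelimb and 84 hindlimb cells had a UMI of none. At least 4 were found in 49 forelimb cells (14.7%) and 26 hindlimb cells (9.09%), with 66 and 57 cells at 3 or 4, next to that limit. Of the cells with 4 or more, 71.4% and 65.4% had an *Rgs5* UMI, against 26.0% and 26.5% of the rest. *Acta2* was 1454 and 1800 CPM in the cells with 4 or more and 88.9 and 75.3 CPM in the rest. The cells with 4 or more were deeper, at medians of 12662 and 21392.5 UMIs against 10248 and 9873.5, and the part of depth was not tested. They are a range of a count of genes, as the limit of 4 is a cut on that count. A single hindlimb cell held 28.8% of the *Acta2* UMIs of that library's chosen cells.

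Vessel tone is set by receptors, ion channels and cyclic GMP in mural cells. Of 22 receptors, channels and cyclic GMP genes, 9 were past the limits as higher and 1 as lower, with a median of 0.81. In chosen cells with *Rgs5*, 13 were higher and 1 lower (median 1.59), where 1.30% of all genes were higher and 2.40% lower. In those without it, 4 were higher and 1 lower (median 0.47), where 1.08% of all genes were higher and 3.28% lower. *Adra2a*, an adrenergic receptor, differed by 2.17, with 9.70 and 11.6 CPM against 2.18 and 2.43. *Agtr1a*, the angiotensin II receptor, was 22.6 and 24.1 CPM against 10.2 and 8.65, and *Prkg1*, the cyclic GMP-dependent kinase, 526 and 709 CPM against 257 and 321. *Cacna1c*, a calcium channel, was 219 and 275 CPM against 157 and 199. *Ednrb*, an endothelin receptor, was lower by -1.31, and 1 hindlimb cell held 77.1% of its UMIs there.

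The PDGF and Notch signals were read in the chosen cells and in endothelial cells. The latter were 492 forelimb and 415 hindlimb cells with 3 or more endothelial markers, *Cdh5* among the markers. As the rule left out cells with *Cdh5*, the contrast in endothelial genes was partly set by the choice. The source of the ligands was not tested. *Pdgfb* was 60.2 and 63.3 CPM in the endothelial cells and 4.45 and 2.55 CPM in the chosen cells, while *Pdgfrb*, its receptor, was higher in the chosen cells. The Notch ligand *Dll4* was 45.9 and 51.5 CPM in the endothelial cells and 0.606 and 0 CPM in the chosen cells. *Jag1*, the ligand that mural cells also carry, was 49.5 and 41.6 CPM in the chosen cells against 22.8 and 25.6 CPM in the endothelial cells and 21.7 and 17.4 CPM in all other cells. Over the 6 PDGF genes, 1 was past the limits as higher (*Pdgfrb*) and 1 as lower (*Pdgfc*), with a median of -0.29. Over 13 Notch genes, 3 were higher (*Heyl*, *Jag1* and *Nrarp*) and 1 lower (*Dll1*), with a median of 0.06. With *Rgs5*, 6 Notch genes were higher and 0 lower (median 0.17), where 1.30% of all genes were higher and 2.40% lower. Without it, 0 were higher and 3 lower (median -0.29), where 1.08% of all genes were higher and 3.28% lower. *Nrarp*, a Notch feedback gene, was 30.1 and 44.4 CPM with *Rgs5* and 1.36 and 2.77 CPM without it. *Hey2*, a Notch target of arterial mural cells, was 13.5 and 23.6 CPM with *Rgs5* and 0.543 and 1.54 CPM without it, and was 24.1 and 52.4 CPM with 5 or more markers.

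Promoters of both lists were searched for the motif of their known regulator, in the RefSeq sequence from 250 bases before to 50 bases after the start of each gene (GRCm38.p6). The core of the Notch factor RBPJ, TGGGAA on either strand, was present in 8397 of 32851 promoters (25.6%) and in 2 of the 10 Notch genes with a promoter sequence, *Hey2* and *Rbpj*. The CArG box, bound by serum response factor, was present on either strand in 535 of 32851 promoters (1.63%) and in 1 of the 12 contractile genes with a sequence, *Myl9*. The promoters of *Hey2* (chr10:30842734-30843033, minus strand) and *Myl9* (chr2:156775214-156775513, plus strand) are shown 5′ to 3′, as *Hey2* was higher with *Rgs5*, *Myl9* was among the contractile genes past the limits, and both hold a match. Capitals mark the matches, and a match is a description and not a binding site.
Hey2: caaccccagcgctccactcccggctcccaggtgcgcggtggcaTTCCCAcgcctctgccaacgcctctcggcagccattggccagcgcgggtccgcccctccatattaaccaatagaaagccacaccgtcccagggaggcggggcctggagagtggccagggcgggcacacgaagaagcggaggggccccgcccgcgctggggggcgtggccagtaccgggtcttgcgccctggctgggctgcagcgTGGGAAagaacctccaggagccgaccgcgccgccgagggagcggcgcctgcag
Myl9: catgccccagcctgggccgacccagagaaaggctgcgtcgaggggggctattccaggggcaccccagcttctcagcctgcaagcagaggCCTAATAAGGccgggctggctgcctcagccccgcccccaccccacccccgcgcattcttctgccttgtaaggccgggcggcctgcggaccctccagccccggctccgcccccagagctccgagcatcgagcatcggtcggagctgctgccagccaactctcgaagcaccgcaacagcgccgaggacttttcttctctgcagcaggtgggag

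The remaining signal lists held few genes past the limits. None of 15 TGF-beta and BMP genes was past them (median -0.10), with *Id3* at 360 and 338 CPM and *Id1* at 313 and 347 CPM the highest of the list. Of 12 angiopoietin, VEGF, S1P and CXCL12 genes, *Flt1* was higher and *Kdr* and *Tie1* were lower (median 0.30). *Kdr* and *Tie1* are receptors of endothelium, and the rule left out cells with *Cdh5*. With no exclusion on *Cdh5* or *Myod1*, *Kdr* turned from -1.61 to 1.85 and *Tie1* from -3.95 to 1.76. *Flt1*, a VEGF receptor of endothelium, was 82.1 and 64.3 CPM against 36.0 and 33.9, with 215 and 194 CPM in the cells with *Rgs5*. Of 17 basement membrane genes, *Itga1* and *Itga7* were higher and *Lama5* and *Col15a1* lower (median 0.45). *Col15a1*, at -1.17, turned to 1.23 with no exclusion and was -0.17 within 3000 to 12000 UMIs, and *Lama5*, at -1.39, was no longer past the limits with no exclusion (-0.93) or within 3000 to 12000 UMIs (-1.55), and turned to 0.57 without cells that held 3 markers of another type. *Itga1*, an integrin that binds collagen IV and laminin, was 99.0 and 113 CPM against 26.0 and 18.6, a difference of 2.23 ± 0.13, with 261 and 361 CPM in the cells with *Rgs5*. *Col4a1*, a chain of that collagen, was 377 and 407 CPM against 261 and 227 and reached 798 and 900 CPM with *Rgs5*. None of 16 fibrillar matrix genes was past the limits (median 0.58), and *Col3a1* led them at 4762 and 4827 CPM against 2995 and 2804. Of 17 factors of mural cells that were tested, *Foxs1* alone was past the limits over all chosen cells (median 0.52). With *Rgs5*, 4 of 17 were higher (median 0.59), where 1.30% of all genes were. Within 3000 to 12000 UMIs, 4 of 17 were (median 0.70), where 1.16% of all genes were. Without *Rgs5*, 1 of 17 was (median 0.12), where 1.08% of all genes were. *Nr2f2*, a factor of veins and perivascular mesenchyme, was not past the limits, but was 258 and 295 CPM with *Rgs5* against 71.1 and 89.6 CPM without it.

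By size, among genes past the limits with at least 20 CPM in both libraries of the higher group, the 10 furthest above the other cells were *Actg2*, *Gucy1a1*, *Ccl11*, *Tagln*, *Gucy1b1*, *Acta2*, *Cox4i2*, *Itga1*, *Pi15* and *Sema5b*. *Ccl11* (eotaxin) was 35.2 and 29.0 CPM against 5.32 and 2.96, and 115 and 100 CPM in the cells with *Rgs5*. *Pi15* was 24.7 and 24.1 CPM against 5.67 and 5.86 but went the other way within the chosen cells, at 13.5 and 3.78 CPM with *Rgs5* and 28.5 and 30.8 CPM without it. The 10 furthest below were *Asprv1*, *Mymx*, *Arpp21*, *Myh3*, *Actc1*, *Ttn*, *Myog*, *Cd86*, *Tnnt2* and *C1qa*, of which most are skeletal muscle genes, and the rule had left out cells with *Myod1*.

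Lists of other cell types were mostly lower in the chosen cells. The rule itself had left out cells with the endothelial gene *Cdh5* or the muscle gene *Myod1*. All 7 skeletal muscle genes were lower past the limits (median -3.62), as were all 5 macrophage genes (median -2.65). So were 4 of 5 epidermis genes (median -2.67), 5 of 6 cartilage genes (median -1.26) and 4 of 5 red blood genes (median -1.09). The same held for 4 of 6 endothelial genes, and 1 gene each of bone, tendon and Schwann cells. Within 3000 to 12000 UMIs, 0 of 5 red blood genes (median -0.49) and 1 of 6 endothelial genes (median -0.55) were lower, where 2.53% of all genes were. With no exclusion, all 6 endothelial genes were past the limits as higher (median 1.59) and 3 of 7 skeletal muscle genes as lower (median -1.04), where 1.13% of all genes were higher and 1.58% lower. *Actc1* was then -1.14, *Tnnt2* -0.83 and *Ttn* -0.31, none of them past the limits, and *Myh3* turned to 0.85. Summed levels were 79.0 and 43.2 CPM against 660 and 537 for skeletal muscle, 483 and 473 CPM against 952 and 1180 for cartilage, and 198 and 201 CPM against 212 and 202 for endothelium. *Pecam1* made up most of the endothelial sum, at 177 and 169 CPM, while *Cldn5* was 0.606 and 0.232 CPM. Of the 5 fibroblast genes, *Dpt* was higher, and the sum was 2497 and 2114 CPM against 1790 and 1544. No gene of these lists was at 0 in the chosen cells. The part of RNA of other cells in the levels was not tested.

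None of 14 division genes (median 0.14) and none of 9 early response genes (median 0.28) was past the limits. *Top2a*, a topoisomerase of dividing cells, was 320 and 273 CPM against 238 and 239, and *Fos* was 1087 and 1118 CPM against 990 and 995.

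Position genes of the forelimb and the hindlimb differed between the chosen cells of the 2 libraries, as they did between the libraries' other cells. *Tbx5*, the forelimb T-box factor, was 57.2 CPM in the forelimb (283 UMIs in 120 cells, interval 50.7 to 64.3) and 2.79 CPM in the hindlimb (1.44 to 4.87). *Pitx1*, the factor that sets hindlimb identity, had no UMI in the forelimb and was 81.5 CPM in 129 hindlimb cells (73.2 to 90.5). Against a floor of 3 UMIs over the forelimb cells, or 0.606 CPM, the hindlimb level was at least 134-fold higher, with counting error left aside. *Tbx4* was 5.86 CPM in the forelimb (3.93 to 8.42) and 26.5 CPM in the hindlimb (21.8 to 31.8). *Hoxc10* and *Hoxc11* had no forelimb UMI and were 29.5 and 14.9 CPM in the hindlimb. The other kept cells of the same libraries differed likewise, with *Tbx5* at 55.4 CPM in the forelimb, 17.9-fold above the hindlimb, *Pitx1* at 1.07 and 68.2 CPM, *Tbx4* at 4.91 and 32.1 CPM and *Hoxc10* at 0.0871 and 23.6 CPM. With 1 library a limb, these differences have no replicate check.

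Of the 27 position genes, 14 had counting intervals that lay apart between the limbs. How many of all genes had intervals apart was not counted, so nothing is read from that count. *Hoxd11* was higher in the forelimb, at 38.0 CPM against 21.6 CPM. *Hoxa10* (48.1 against 70.6 CPM), *Hoxa11* (9.90 against 16.9 CPM) and *Meis1* (27.7 against 38.8 CPM) were higher in the hindlimb. So were *Meis2* (77.8 against 108 CPM) and *Shox2* (138 against 166 CPM). The other kept cells differed the same way, with a forelimb to hindlimb ratio of 1.23 for *Hoxd11*. Their ratio was 0.781 for *Hoxa10*, 0.748 for *Hoxa11*, 0.910 for *Meis1*, 0.748 for *Meis2* and 0.891 for *Shox2*. The intervals overlapped for *Prrx1*, a factor of limb mesenchyme, at 331 and 332 CPM, and for *Hoxd13* (21.6 and 18.8 CPM) and *Hoxa13* (6.67 and 11.8 CPM), factors of the hand and foot region. Of 9374 genes with at least 100 UMIs, 84 (0.896%) differed over 2-fold, 52 of them higher in the forelimb. The 5 furthest toward the forelimb were *S100a9*, *S100a8*, *Stfa1*, *Cstdc5* and *Mcpt4*, genes of neutrophils and mast cells, and for each of them 1 cell held 94.1% or more of the forelimb UMIs. *S100a9* was 139 CPM in the forelimb and 0.696 CPM in the hindlimb, and 1 cell held 99.7% of its forelimb UMIs. At least 3 of 4 mast cell genes were found in 7 chosen forelimb cells and 5 chosen hindlimb cells, with 2327 and 155 UMIs of the 4 genes in all chosen cells, and how much of the count of 52 rests on single cells was not tested. After *Pitx1* and *Hoxc10*, the genes furthest toward the hindlimb were *Ryr3*, *Nell1* and *Tbx4*, with *Nell1* at 9.10 CPM in the forelimb and 44.3 CPM in the hindlimb.

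The limb identity factors *Tbx5* and *Pitx1* were also read by *Rgs5* and by the number of markers. *Tbx5* was 39.6 CPM in forelimb cells with *Rgs5* (29.4 to 52.3), 63.2 CPM in those without it (55.4 to 71.9), and had 5 UMIs in the cells with 5 or more markers (3.91 to 28.1 CPM). *Pitx1* was 63.2 CPM in hindlimb cells with *Rgs5* (49.0 to 80.3), 87.4 CPM without it (77.6 to 98.2), 85.7 CPM with 4 markers (67.1 to 108), and 4.77 CPM with 5 or more (2 UMIs, 0.577 to 17.2). *Tbx4*, the other hindlimb factor, was 30.2 CPM in hindlimb cells with *Rgs5* (20.7 to 42.6), 25.2 CPM without it (20.1 to 31.3), and 11.9 CPM with 5 or more markers (5 UMIs, 3.87 to 27.8), so that its intervals overlap. *Prrx1* did not follow them, at 487 and 467 CPM with 5 or more markers. The intervals with 5 or more markers lie under those of the cells without *Rgs5* for *Tbx5* and *Pitx1*, and rest on 5 and 2 UMIs. The same held for *Lmx1b* in the forelimb (0.583 to 17.4 against 26.7 to 38.6 CPM) and the hindlimb (0 to 8.79 against 26.4 to 39.1 CPM). It also held for hindlimb *Hoxc10* (3.87 to 27.8 against 28.4 to 41.5 CPM) and for *Shox2* in both limbs. The drop was thus not particular to the identity factors.

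**Figure D4:**
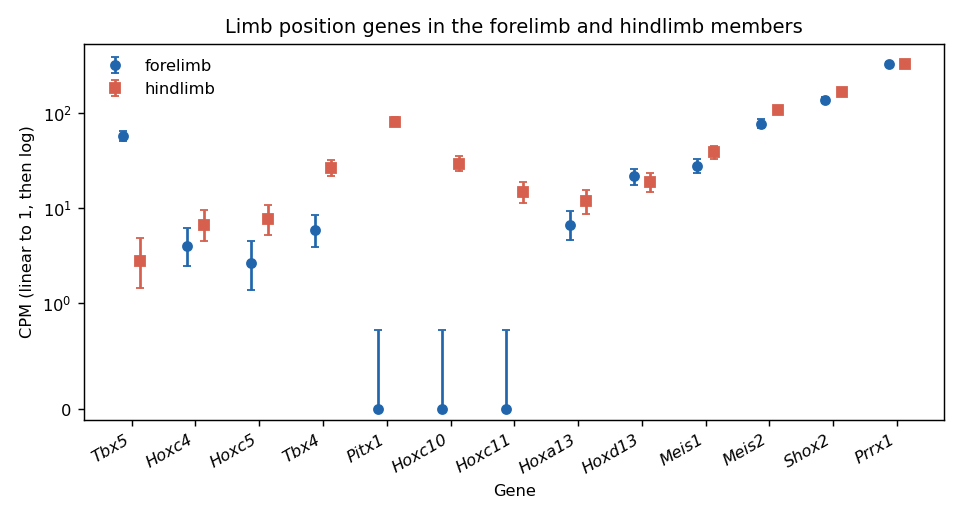
Level in CPM (y axis, linear to 1 and then log) of limb position genes in the chosen forelimb and hindlimb cells, with Poisson 95% intervals. *Tbx5* was 57.2 CPM in the forelimb and 2.79 CPM in the hindlimb, and *Pitx1* was 0 and 81.5 CPM.

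The chosen limb cells were next compared with the penis cells chosen by the same rule. Of the contractile genes tested, 10 of 13 were lower in the limb, as were 12 of 21 tone genes, while 10 of 14 division genes were higher. The summed counts were fitted by edgeR (quasi-likelihood test, p-values adjusted by Benjamini-Hochberg over 14441 genes), with forelimb and hindlimb as the 2 limb samples against 3 penis samples. The limb libraries are of different limbs and may share embryos. The fit called 1048 genes higher in the limb (7.26%) and 1297 lower (8.98%), or 16.2% in all, with a median log2 difference of -0.02. Nothing is read from a list count of this comparison that is near these shares. The labels do not tie libraries to animals, so p-values measure only the spread between these libraries. The penis cells held *Rgs5* more often, with a UMI in 46.6%, 50.1% and 58.6% of cells, and at 738, 662 and 1002 CPM. The limit of 6000 genes kept 63, 49 and 38 further penis cells with 3 markers out.

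Lists of other cell types also differed between the chosen limb and penis cells. Of the skeletal muscle genes tested, 3 of 5 were higher in the limb (median 4.95). The whole list summed to 79.0 and 43.2 CPM against 33.2, 17.5 and 20.7 CPM. *Pax7* was at 0 in the chosen cells of each penis library. A gene near 0 in the penis could pass the filter on low counts only through the limb libraries. For such genes the direction was thus partly set by the filter. Of the cartilage genes 4 of 6 were higher (median 1.97), with 483 and 473 CPM against 144, 169 and 159 CPM, and of the endothelial genes 2 of 4 (median 0.89), with 198 and 201 CPM against 96.5, 99.1 and 92.3 CPM. Of the epidermis genes 3 of 5 were lower and 1 higher (median -3.29), with 22.8 and 13.2 CPM against 50.7, 278 and 99.0 CPM. Bone, tendon, macrophage, Schwann and red blood lists had at most 1 gene called in each direction. Without cells that held 3 markers of another type, red blood list not used, 10 of 13 contractile genes were lower (median -1.97). There 12 of 21 tone genes were lower and 1 higher, and 11 of 14 division genes were higher. Over all genes 6.94% were higher and 8.87% lower. In that setting, which leaves out cells by these lists, 1 of 5 cartilage genes was higher and 1 lower (median -0.52). Of the skeletal muscle and endothelial genes, 2 of 4 each were higher (medians 2.59 and 0.81). Of the epidermis genes, 2 of 5 were lower and 1 higher (median -0.80).

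Of 13 contractile genes tested, 10 were lower in the limb and none higher, with a median of -2.24. *Acta2* was 386 and 322 CPM in the limbs and 1455, 1264 and 1646 CPM in the penis libraries, a log2 difference of -2.01 ± 0.13 (adjusted p = 1.1e-06). *Tagln* was 153 and 129 CPM against 805, 776 and 855 CPM (-2.49 ± 0.11, adjusted p = 8.4e-08). *Cnn1* (calponin) was 7.28 and 7.66 CPM against 67.7, 69.6 and 64.0 CPM (-3.14 ± 0.15, adjusted p = 1.7e-07). *Tpm2*, a tropomyosin, was 190 and 119 CPM against 499, 479 and 488 CPM (-1.63 ± 0.16, adjusted p = 2.3e-05). For these genes no limb library reached the lowest penis library. *Synpo2* was the furthest of the list, at 8.29 and 9.29 CPM against 79.7, 87.9 and 95.3 CPM.

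The difference was smaller among cells with *Rgs5* in both tissues. There, 7 of 12 contractile genes were lower with a median of -1.18, where 4.31% of all genes were higher and 6.33% lower. *Cnn1* differed by -1.82 ± 0.24 (adjusted p = 0.00014) and *Tagln* by -1.55 ± 0.12 (adjusted p = 2.1e-06). *Acta2* was no longer past the limits, at -0.84 ± 0.14 (adjusted p = 0.00056), nor was *Tpm2* at -0.87 or *Actg2* at -0.70. Among cells without *Rgs5* in both tissues, 10 of 12 were lower with a median of -3.07, where 6.88% of all genes were higher and 8.62% lower.

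**Figure D5:**
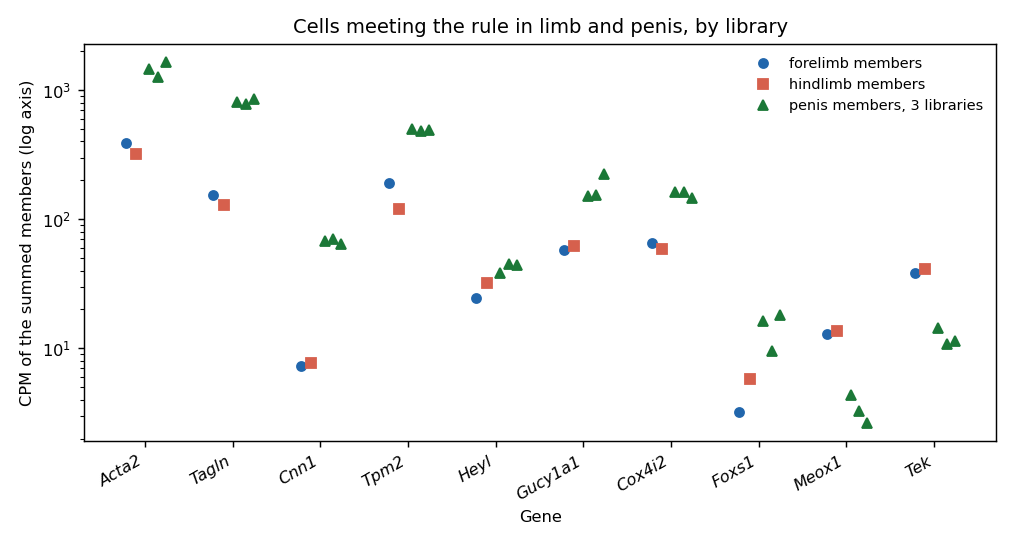
Level in CPM (log axis) of 10 genes outside the rule in the chosen cells of the forelimb, the hindlimb and the 3 penis libraries, 1 point per library. *Acta2*, *Tagln*, *Cnn1* and *Tpm2* were lower in both limb libraries than in each penis library, and *Meox1* and *Tek* were higher.

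Of 22 pericyte genes, 10 were lower in the limb and 2 higher, with a median of -0.85, where 8.98% of all genes were lower and 7.26% higher. *Gucy1a1* was 57.8 and 61.7 CPM against 150, 154 and 222 CPM (-1.51 ± 0.16, adjusted p = 2.7e-05), and *Pdgfrb* was 80.0 and 85.7 CPM against 196, 192 and 244 CPM (-1.31 ± 0.11, adjusted p = 7.5e-06). *Epas1*, an oxygen-sensing factor, was the furthest below, at 15.6 and 19.0 CPM against 102, 92.9 and 127 CPM. The 2 higher genes were factors of mural development. *Ebf2* was 249 and 239 CPM against 44.7, 40.5 and 61.4 CPM (2.37 ± 0.13, adjusted p = 3.1e-07), and *Tbx18* was 56.4 and 41.8 CPM against 19.6, 12.5 and 16.6 CPM (1.62 ± 0.19, adjusted p = 6.5e-05). With *Rgs5* in both tissues, *Gucy1a1* (-0.86) and *Cox4i2* (-0.31) were no longer past the limits, while *Pdgfrb* (-1.03 ± 0.16) and *Ebf2* (1.32 ± 0.18) were.

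Of 21 tone genes tested, 12 were lower and 1 higher, with a median of -1.32. In the interaction of cell group and tissue given below, 2 of 22 were relatively lower (median -0.40), where 1.20% of all genes were. *Adra2a* was 9.70 and 11.6 CPM against 74.4, 78.8 and 84.7 CPM (-2.87 ± 0.14, adjusted p = 2.0e-07). *Ednra*, the endothelin receptor of smooth muscle, was 41.6 and 49.4 CPM against 175, 198 and 229 CPM (-2.11 ± 0.13). *Agtr1a* was the exception, at 22.6 and 24.1 CPM against 7.60, 8.01 and 9.79 CPM (1.51 ± 0.18, adjusted p = 6.9e-05), and lost its call without cells that held 3 markers of another type (1.12, adjusted p = 0.073). That setting left 52 forelimb and 50 hindlimb chosen cells, since globin counted as a marker, and with the red blood list not used *Agtr1a* was 1.62 (adjusted p = 1.9e-05).

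Among signals, *Hey2* was 3.84 and 6.96 CPM against 24.6, 24.3 and 33.1 CPM (-2.31 ± 0.25, adjusted p = 4.2e-05). *Hey1*, *Hey2* and *Notch4* were the 3 of 10 Notch genes that were lower, and none of 9 was called by edgeR with *Rgs5* in both tissues. *Notch4*, at -1.91 with all libraries, lost its call without the hindlimb (-1.64, adjusted p = 0.037), the forelimb (-2.28, adjusted p = 0.015), penis 2 (-1.88, adjusted p = 0.017) or penis 3 (-1.69, adjusted p = 0.015). *Angpt2*, a ligand that loosens vessels, was 12.1 and 18.1 CPM against 123, 128 and 127 CPM (-3.04 ± 0.15, adjusted p = 1.9e-07). *Tek*, the receptor of the angiopoietins, was 38.4 and 40.9 CPM against 14.3, 10.8 and 11.3 CPM (1.72 ± 0.15, adjusted p = 1.1e-05), and 0.93 (adjusted p = 0.0028) with no exclusion on *Cdh5* or *Myod1*. It was too low to be tested among cells with *Rgs5* in both tissues. Within the limb cells *Tek* lay with the cells without *Rgs5*, at 47.5 and 52.0 CPM against 11.9 and 6.61 CPM with it. Of 6 PDGF genes, *Pdgfrb* and *Pdgfd* were lower, and of 15 TGF-beta and BMP genes *Tgfb3* and *Acvrl1* were.

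Most matrix genes were not called, where 8.98% of all genes were called lower and 7.26% higher. Of 17 basement membrane genes, 6 were lower and none higher (median -0.80), led by *Col15a1*, at 17.4 and 12.8 CPM against 276, 249 and 265 CPM (-4.09 ± 0.13, adjusted p = 3.0e-08). Of 16 fibrillar and elastic genes, *Eln* (elastin) and *Dcn* were lower and *Fn1* (fibronectin) was higher (median -0.44). None of the 16 was called in the interaction of cell group and tissue given below (median 0.32). *Eln* was 233 and 187 CPM against 1371, 1324 and 1256 CPM (-2.62 ± 0.13), and *Fn1* was 619 and 591 CPM against 302, 293 and 286 CPM (1.07 ± 0.09, adjusted p = 5.3e-06).

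Of 14 division genes, 10 were higher in the limb and none lower, with a median of 1.23. None of the 14 was called in the interaction of cell group and tissue given below (median -0.24). *Birc5* (survivin) was 171 and 136 CPM against 38.2, 35.0 and 39.9 CPM (2.05 ± 0.12, adjusted p = 4.7e-07), and *Top2a* was 320 and 273 CPM against 111, 133 and 127 CPM (1.29 ± 0.11, adjusted p = 6.6e-06). With *Rgs5* in both tissues, 8 of 14 were higher, where 4.31% of all genes were. Of 9 early response genes, the heat shock genes *Hspa1b* and *Hspa1a* were lower.

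Of the factors, 6 of 16 were higher, *Ebf2* of the pericyte list among them, and 4 lower. With *Rgs5* in both tissues 3 of 15 were higher and none lower, where 4.31% of all genes were higher and 6.33% lower. *Meox2*, a mesodermal homeobox factor, was 85.1 and 92.4 CPM against 15.0, 16.3 and 22.6 CPM (2.36 ± 0.15, adjusted p = 8.0e-07). *Foxf2*, a forkhead factor of pericytes, was 1.01 and 1.86 CPM against 22.6, 20.5 and 26.0 CPM (-3.97). It could pass the filter on low counts only through the penis libraries, so its direction was partly set by the filter. *Klf2*, *Foxc1* and *Meox1* were also higher and *Foxf1*, *Foxs1* and *Tbx2* lower, where *Foxs1* (-1.28, adjusted p = 0.017) and *Foxc1* (1.37, adjusted p = 0.014) lost their calls without the forelimb library. *Foxf1* lost its call without the hindlimb (-1.94, adjusted p = 0.044), penis 1 (-2.23, adjusted p = 0.016) or penis 3 (-2.63, adjusted p = 0.011). With *Rgs5* in both tissues, *Foxf2* (-2.58, adjusted p = 0.013), *Foxs1* (-1.04, adjusted p = 0.034), *Foxc1* (1.19, adjusted p = 0.027), *Meox1* (1.89, adjusted p = 0.02), *Klf2* (0.81) and *Tbx2* (-0.79) were no longer past the limits. Of 27 position genes, *Lmx1b*, the dorsal limb factor, was higher, at 27.1 and 32.0 CPM against 0, 0.501 and 0 CPM (7.14). It could pass the filter on low counts only through the limb libraries, so its direction was partly set by the filter. *Msx1*, *Msx2*, *Hoxa13*, *Tbx4*, *Hoxd13* and *Meis1* were lower, the last not past the size limit without the forelimb (-0.92).

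By size, among called genes with at least 20 CPM in every library of the higher group, the 10 furthest above the penis cells were *Lmx1b*, *Asb4*, *Mecom*, *Col2a1*, *Miat*, *Sorcs3*, *Nefl*, *Nexmif*, *Hmga2* and *Htr1f*. Below that level in 1 library, the mast cell genes *Cpa3* (6.83), at 137 and 10.2 CPM in the limbs, and *Cma1* (6.50), at 202 and 11.8 CPM, were also called. *Mecom* was 239 and 152 CPM against 4.61, 8.76 and 7.16 CPM, and *Hmga2*, a chromatin protein of the embryo, 60.8 and 142 CPM against 7.83, 4.25 and 4.14 CPM. *Col2a1*, cartilage collagen, was 270 and 245 CPM against 6.91, 13.5 and 7.16 CPM, and was higher still in the other limb cells, at 545 and 648 CPM. Those furthest below were *Ccl19*, *Isl1*, *Mustn1*, *Sod3*, *Nts*, *Agt*, *Csmd1*, *Myoc* and *Pcp4*. *Isl1* was 0.202 and 2.09 CPM against 211, 213 and 222 CPM, and was also 196, 195 and 201 CPM in the other penis cells. It could pass the filter on low counts only through the penis libraries, and *Lmx1b* only through the limb libraries.

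Whether a tissue difference was larger in the chosen cells than in all other kept cells was tested with the interaction of cell group and tissue, in the quasi-likelihood framework of edgeR, with the library as a block and p-values adjusted by Benjamini-Hochberg. Of 20590 genes, 220 (1.07%) were relatively higher in the chosen limb cells and 248 (1.20%) relatively lower, or 2.27% in all. The median over all genes was -0.03. As in the limb alone, chosen and other cells were formed from the UMIs of the same cells. *Rgs5* was also more frequent in the chosen penis cells. The interaction p-values thus cannot tell a tissue difference from how the rule sorted the cells of each tissue.

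Of 15 contractile genes, 7 were relatively lower and none higher, with a median of -1.24. Without cells that held 3 markers of another type, red blood list not used, 3 were relatively lower and none higher (median -0.84), where 1.40% of all genes were lower and 0.826% higher, and the 3 were *Cnn1* (-2.91), *Lmod1* (-2.07) and *Synpo2* (-1.18). *Acta2* had an interaction of -2.86 ± 0.07 (adjusted p = 3.3e-13), with 38.7, 36.5 and 46.1 CPM in the other penis cells and 78.8 and 58.8 CPM in the other limb cells. *Cnn1* had -3.02 ± 0.21 (adjusted p = 9.9e-08) and *Tpm2* -2.18 ± 0.09 (adjusted p = 6.9e-10). Markers of skeletal muscle, a tissue that also uses tropomyosins, differed between the other cells, where the 7 of them summed to 660 and 537 CPM against 8.97, 9.48 and 9.23 CPM in the other penis cells. Of those 7 genes themselves, 4 were relatively lower in the chosen limb cells (median -4.42), from which the rule had left out cells with *Myod1*, and 1 was with no exclusion (median -0.78), where 0.878% of all genes were lower and 1.06% higher. Without cells that held 3 markers of another type, *Acta2* was -0.94 (adjusted p = 4.7e-07), or -0.73 (adjusted p = 1.2e-05) with the red blood list not used, and no longer past the size limit. With *Rgs5* in both tissues, 4 contractile genes were lower and 1 higher (median -0.93), where 1.23% of all genes were lower and 0.871% higher, and *Tagln* was -0.27 (adjusted p = 0.15).

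Of 22 pericyte genes, 3 were relatively higher and 4 lower. *Cox4i2* was relatively higher, at 1.51 ± 0.09 (adjusted p = 2.6e-08), and its level outside the chosen cells was 101, 94.9 and 90.0 CPM in the penis and 13.1 and 12.3 CPM in the limbs. *Heyl* was relatively lower, at -1.61 ± 0.20 (adjusted p = 4.6e-05), and was not called between the chosen cells themselves (-0.56 ± 0.15, adjusted p = 0.011). *Ebf2* was relatively lower, at -1.95 ± 0.10 (adjusted p = 4.9e-09), although it was higher in the chosen limb cells. *Foxs1* and *Art3* were relatively higher, and *Des* and *P2ry14* relatively lower. *Foxs1* lost its call without the hindlimb (1.46, adjusted p = 0.17), penis 1 (2.19, adjusted p = 0.013), penis 2 (1.88, adjusted p = 0.019) or penis 3 (2.24, adjusted p = 0.016), and *Art3* without the hindlimb (0.93, adjusted p = 0.047). *Tek* had 2.75 ± 0.16 (adjusted p = 1.4e-08) and *Flt1* 1.69 ± 0.14 (adjusted p = 6.8e-07). Of the 6 endothelial genes, *Emcn*, *Egfl7* and *Pecam1* were relatively higher too (median 0.77), and 5 of 6 were with no exclusion on *Cdh5* or *Myod1* (median 1.98), where 1.06% of all genes were. Their summed level in the other cells was 390, 366 and 402 CPM in the penis and 212 and 202 CPM in the limbs, and the part of endothelial RNA was not tested. *Tek* was 49.0, 51.6 and 56.2 CPM in the other penis cells and 23.2 and 24.4 CPM in the other limb cells. The *Flt1* call was lost without cells that held 3 markers of another type (0.51, adjusted p = 0.27), as was that of *Tek* (0.78, adjusted p = 0.24). With the red blood list not used they were 0.17 (adjusted p = 0.72) and 0.96 (adjusted p = 0.00066), also under the limits.

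Some genes stand on more than 1 list. Of 22 tone genes *P2rx1* and *Kcnma1* were relatively lower, and of 6 PDGF genes *Pdgfd* was relatively higher and *Pdgfa* lower. Of 17 basement membrane genes *Lama5* and *Itga7* were relatively lower. Of 18 factors, 2 were relatively higher, *Meox1* and *Foxs1*, and 1 lower, *Ebf2*. *Foxs1* and *Ebf2* are also on the pericyte list. So is *Heyl*, the 1 of 13 Notch genes that was relatively lower. Of 27 position genes, *Meis2* was relatively higher and *Msx1*, *Hoxd13* and *Hoxa13* relatively lower. The size limit of 1 was missed by *Pdgfa* without penis 1 or penis 3 (-0.99 each), by *Kcnma1* without any of the penis libraries (-0.99, -0.89 and -0.96) or the hindlimb (-0.66), by *Hoxd13* without penis 1 (-0.98), penis 2 (-0.95) or the hindlimb (-0.91), and by *Hoxa13* without penis 1 (-0.98), penis 3 (-0.89) or the forelimb (-0.88). No gene of the division, early response, fibrillar matrix, TGF-beta and BMP or fibroblast lists was called in this fit. With at least 4 markers, 6 of 16 fibrillar matrix genes (median 0.76) and 3 of 5 fibroblast genes (median 1.11) were relatively higher. Over all genes 373 of 20282 were relatively higher there.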

How the data were processed

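Forelimb, hindlimb and penis were dissociated and sequenced with the 10X Genomics 3′ v3.1 kit. The authors ran Cell Ranger 7.0.0 against mm10, and the deposited values are raw UMI counts for each gene in each barcode. Intron counting is not given in the sources used here. Limb barcodes were kept with 100 to 9000 genes, at most 10% mitochondrial UMIs and log10 genes per log10 UMI of at least 0.8, and penis barcodes with 500 to 6000 genes and at most 5%. The limits on reads in the study's methods were read as genes, and its limit of 9500 for the hindlimb was an alternative. Counts were summed per library over chosen and other cells, and tested with edgeR 4.0.16 (R 4.3.3; TMM, filterByExpr, quasi-likelihood, Benjamini-Hochberg), after a check on simulated counts. A gene was called at an adjusted p under 0.01 and a log2 difference over 1 in size, and the rule's 9 genes got no test. Depth sets the precision, and counting intervals are exact at 95%. The members and gene lists were chosen with earlier results of these data known. Genes named were, per list, those with the highest level or the largest called difference, the 10 largest and 10 smallest called differences with at least 20 CPM in every library of the higher group, and 5 forelimb to hindlimb ratios each way, and others named were chosen after their values were seen. One of these genes is not reported here. Alternatives included DESeq2 1.42.0, other marker numbers, depth and leaving out each library, and those on *Rgs5* and on the red blood list were chosen after seeing the data. Thinning used expected shares at 2000 UMIs.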

Additional observations from a re-analysis of the deposited data

Results flagged for a closer look

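Genes whose difference between limb and penis was not the same in the chosen cells as in all other kept cells were picked out by the interaction test of edgeR with Benjamini-Hochberg adjustment, and values are log2 interactions. Contractile genes were *Acta2* (-2.86), *Tagln* (-1.19), *Cnn1* (-3.02), *Lmod1* (-2.18), *Synpo2* (-2.23), *Tpm1* (-1.14) and *Tpm2* (-2.18). Pericyte genes were *Cox4i2* (1.51), *Foxs1* (2.04), *Art3* (1.10), *Heyl* (-1.61), *Des* (-1.47), *P2ry14* (-2.08) and *Ebf2* (-1.95). Genes of tone, growth factors, vessel signals and basement membrane were *P2rx1* (-5.36), *Kcnma1* (-1.01), *Pdgfa* (-1.08), *Pdgfd* (1.04), *Tek* (2.75), *Flt1* (1.69), *Lama5* (-2.83) and *Itga7* (-1.76). Factors and position genes were *Meox1* (1.84), *Meis2* (1.26), *Msx1* (-1.46), *Hoxa13* (-1.02) and *Hoxd13* (-1.06). Striated muscle genes among the largest negative values were *Tnnt2* (-6.52), *Tnnt1* (-4.52), *Myh3* (-4.42), *Ttn* (-3.55), *Tnni1* (-3.26), *Rbm24* (-3.63) and *Fbxl22* (-3.53), and *Nts* (-3.97), *Sytl2* (-3.96) and *Pcp4* (-3.48) were the others. The rule had left out cells with the muscle gene *Myod1*. With no exclusion on *Cdh5* or *Myod1*, *Tnnt2* (-3.69, adjusted p = 0.037), *Tnni1* (-1.09, adjusted p = 0.38) and *Ttn* (-0.02) lost their calls and *Myh3* turned to 0.49. Among the largest positive values, *Cdh18* (3.47), *Tll1* (3.19), *Xkr4* (2.86) and *Sorcs3* (2.84) were found in 26 or more chosen cells of each limb. The rest were *Ibsp* (3.71), *Spp1* (2.92), *Lyz2* (2.88), *Ms4a6c* (3.11) and *Emcn* (2.87), which were genes of bone, myeloid cells and endothelium, and *S100a9* (7.36), of which 1 forelimb cell held 99.7% of the UMIs in the chosen cells of that library. Without the forelimb, *S100a9* was 0.67 (adjusted p = 0.83), *Ibsp* 2.10 (adjusted p = 0.34), *Spp1* 1.50 (adjusted p = 0.17) and *Ms4a6c* 3.02 (adjusted p = 0.015), and without the hindlimb *Emcn* was 0.49 (adjusted p = 0.8), so that these calls were lost. The *S100a9* and *Ttn* calls were also lost without any 1 of the penis libraries (7.54, 7.41 and 7.23 for *S100a9* and -3.47, -3.56 and -3.45 for *Ttn*), *Ms4a6c* without penis 1 (2.40) or penis 2, and *Emcn* without penis 1 (2.66) or penis 3 (2.99). The cause of none of these was tested, and the interaction also carries how the rule sorted the cells of each tissue.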

How the results depend on the processing

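With 1 library per limb and few chosen cells, depth limits rare genes and small differences, and the causes of the changes below were not tested. Over the named genes and the alternatives other than leaving out a library, 552 of 725 log2 values against other limb cells (52 genes), 851 of 947 against penis cells (80 genes) and 428 of 564 interactions (47 genes) kept direction and side of the limits, while 151, 94 and 121 lost the call and 22, 2 and 15 reversed.

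The share of kept cells, 1.51% in the forelimb and 1.39% in the hindlimb, was 0.413% and 0.415% with at least 4 markers, 7.35% and 7.44% with at least 2, 1.82% and 1.66% with no exclusion on *Cdh5* or *Myod1*, 1.09% and 1.01% without cells with 3 markers of another type (1.58% in the hindlimb with the red blood list not used), 1.15% and 1.03% within 3000 to 12000 UMIs, 0.494% and 0.419% with *Rgs5*, and 1.02% and 0.975% without it. Leaving out cells with 3 markers of another type kept 52 of 334 and 50 of 286 chosen cells, as globin counted, and with the red blood list not used the counts higher and lower were 215 and 439 against other limb cells, 961 and 1228 against penis cells, and 160 and 271 for the interaction, each within 1.5 times. Against other limb cells, the 194 genes higher became 111 with at least 2 markers, 81 without cells with 3 markers of another type, and 53 with no library block. The 594 lower became 338 with no exclusion, 156 without cells of other types, 387 with DESeq2, 174 with no library block, and 123 against cells with *Pdgfra* only. Against penis cells, the 1048 higher and 1297 lower became 661 and 827 with at least 4 markers, 1721 and 2008 with at least 2, 398 and 542 without cells of other types, and 489 and 718 with *Rgs5*, and without 1 library they were 869 to 969 and 1092 to 1189. For the interaction, the 220 higher became 373 with at least 4 markers, 60 without cells of other types and 339 with no filter on low counts, the 248 lower became 123 without *Rgs5*, and without 1 library they were 181 to 222 and 167 to 225.

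Reversed against other limb cells, as log2 values, were *Acta2* (-0.87), *Actg2* (-0.15), *Art3* (-0.34), *Flt1* (-0.30), *Gja4* (-10.47), *Myocd* (-0.47), *Nrarp* (-1.36) and *Rgs4* (-0.04) in cells without *Rgs5*. *Flt1* (-0.20), *Gja4* (-0.69) and *Nrarp* (-0.45) reversed with at least 2 markers, *Col15a1* (1.23), *Kdr* (1.85), *Myh3* (0.85) and *Tie1* (1.76) with no exclusion, *Ednrb* (0.82), *Kdr* (0.71), *Lama5* (0.57) and *Myog* (0.64) without cells of other types, *Col15a1* (0.31) and *Kdr* (0.48) with the red blood list not used for that, and *Ednrb* (0.08) against cells with *Pdgfra*. Against penis cells, *Adra1a* reversed within 3000 to 12000 UMIs (0.27) and with *Rgs5* (0.14). Among interactions, *Des* (0.34), *Lyz2* (-1.05), *S100a9* (-4.89) and *Tll1* (-1.39) reversed without cells of other types, *Des* (0.24) and *Lyz2* (-1.39) with the red blood list not used for that, *Lyz2* (-0.84) and *Ms4a6c* (-8.42) with at least 4 markers, *Lyz2* (-0.16) and *Spp1* (-1.76) with at least 2, *Hoxd13* (0.01), *Lyz2* (-1.20) and *Ms4a6c* (-1.52) with *Rgs5*, *Nts* (3.38) without it, and *Myh3* (0.49) with no exclusion.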
